A study of Mus musculus with 20 samples.

Results

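The microRNAs described here are the mouse miR-297, miR-466, miR-467 and miR-669 series, most of which are encoded in a single intron of the gene Sfmbt2. They were taken from count tables of small RNA in cultured embryonic midbrain neurons. A row was included when it was named miR-297, miR-466, miR-467 or miR-669 with any letter, arm or copy number, and a joined name counted when any of its parts matched. This gave 68 of 1886 rows of mature miRNAs, of which 7 carried joined names. The choice used names only and no measured value.

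A miRNA is cut from a hairpin precursor, and either the 5p or the 3p strand of the hairpin can be loaded into an Argonaute protein. The seed, the stretch near the 5′ end, then directs it to messenger RNAs. Sfmbt2 encodes a Polycomb group protein with malignant brain tumor domains and is imprinted in the mouse, where the paternal copy is expressed in the early embryo and the placenta. The hairpins in its intron are tandem repeats of a few related units specific to rodents, and loss of the cluster impairs placental development.

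The cultures were made from the ventral mesencephalon of C57Bl6/J mouse embryos at E12.5, with the meninges removed, and were grown in Neurobasal-A with B27 and no serum. They were collected after 1 day (DIV1) or 5 days (DIV5) in vitro, each without or with 10 ng/ml GDNF, glial cell line-derived neurotrophic factor, a survival factor for dopaminergic neurons. The 4 groups, DIV1 control, DIV1 GDNF, DIV5 control and DIV5 GDNF, held 5 libraries each. The labels do not say whether these were separate animals or cultures, so a p-value measures the spread between these libraries, which may be technical.

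On GRCm38 (GENCODE vM21), Sfmbt2 lies at chr2:10370510-10595253 on the plus strand. Of 81 hairpins named for the 4 series, 71 lay inside Sfmbt2, and all 71 lay in intron 11 of the 22 introns of its transcript Sfmbt2-205. They spanned chr2:10466663-10518279, which is 51.6 kb of the 62.5 kb intron, and 0 of them overlapped an annotated exon of Sfmbt2. Exons of other genes were not searched. The miR-669 series had 29 hairpins in the intron, miR-466 had 23, miR-467 had 14 and miR-297 had 5. Several mature names come from many copies: 12 hairpins carried the name miR-669a and 10 the name miR-467a, so a count for such a name cannot be assigned to a single copy. In contrast, miR-467d, miR-466g and miR-669b each had 1 hairpin in the intron and miR-669d had 2.

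**Figure D1:**
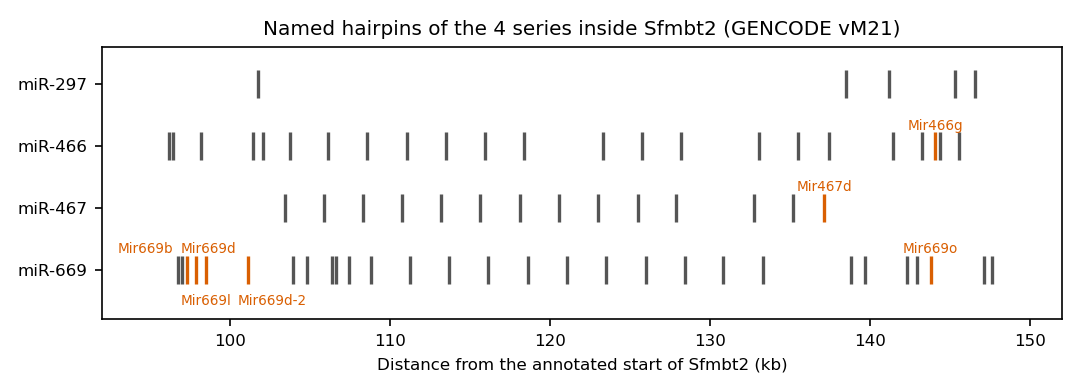
Positions of the 71 named hairpins inside Sfmbt2, as distance in kb from the annotated start of the gene (x axis), by series (y axis). Orange marks 7 hairpins of 6 miRNAs named in the text. Mir669b, Mir669d, Mir669l and Mir669d-2 lie between 97.3 and 101 kb, whereas Mir467d, Mir669o and Mir466g lie between 137 and 144 kb.

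By these positions, 54 of the 68 rows came only from the intron, 5 could come from the intron or from elsewhere, and 9 came only from elsewhere. The 54 intronic rows held 8983 reads, 94.6% of the reads of the 68 rows, against 251 reads (2.64%) for the 5 shared rows and 264 reads (2.78%) for the 9 outside rows. The name of the cluster therefore held for most of the reads and not for every row.

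Mature sequences from RefSeq (GRCm38.p6) matched 8 of the 77 names in these rows, and all 8 are encoded outside the Sfmbt2 intron. They are shown because no sequence was matched for the other names, and they do not stand for the intronic rows. They differ in the part that directs target choice. Capitals mark the seed, bases 2 to 8 from the 5′ end.
miR-466q: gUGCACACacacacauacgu
miR-466k: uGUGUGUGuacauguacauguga
miR-467h: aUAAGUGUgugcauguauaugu
miR-467g: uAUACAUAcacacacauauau
miR-467f: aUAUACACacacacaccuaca
miR-466i-3p: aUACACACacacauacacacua
miR-466j: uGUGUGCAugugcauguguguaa
miR-669n: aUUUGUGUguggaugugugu
No seed was shared between these 8. Each held UGUGUG (4 of 8) or CACACA (4 of 8), searched on the mature strand only, whereas 40 of the 1679 mature mouse sequences in the same table (2.38%) held either. They are encoded at chr3:28419988-28420007 (miR-466q), chr3:85467396-85467418 (miR-466k), chr9:115381898-115381919 (miR-467h), chr13:17747552-17747573 (miR-466i-3p), chr10:60960802-60960824 (miR-466j) and chr3:115979905-115979924 (miR-669n) on the plus strand, and at chr5:34732872-34732892 (miR-467g) and chr11:69635419-69635439 (miR-467f) on the minus strand. All were sparse: miR-466q had 48 reads in 13 libraries, miR-466k 37 reads in 10 and miR-467h 31 reads in 15. The others had 5 reads or fewer in all 20 libraries together.

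Total counts were between 420118 and 1761023 per library at DIV1 and between 1061619 and 4324505 at DIV5. A single read was thus worth 0.231 to 2.38 CPM (counts scaled to the library total), and a count of 0 allowed up to 0.694 to 7.14 CPM (3 reads). Reads carried no molecular identifiers, so these limits and the intervals below cover counting error only. The DIV5 libraries of replicates 1 and 2 stood apart from replicates 3 to 5 in both groups: their totals were between 1061619 and 1907937, against 2969524 to 4324505, and 17.7 to 19.5% of their reads had no miRNA feature, against 9.51 to 13.3%. The labels name no batch, and several of the DIV5 results below are therefore also given for each of these sets. In bulk libraries, fewer cells of a type and less of a miRNA per cell cannot be told apart.

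The cluster was detected at low levels. Of the 68 rows, 48 had at least 1 read and 20 had none in any library. For a row whose reads were all counted, this allows up to 0.0763 CPM over all libraries. Of the 20, however, 7 have more than 1 hairpin, such as miR-467a-3p with 10, and how reads that match several copies were counted is not given in the sources used here, so the limit may not hold for them. The 48 rows held 9498 of 39327853 reads (0.0242%). Reads were concentrated in few rows, since the 4 most abundant rows held 59.9% of them and the 10 most abundant 83.4%, while 17 rows had between 1 and 19 reads. The miR-669 series contributed 43.9% of the reads (20 of 26 rows detected), miR-467 37.8% (10 of 13), miR-466 14.3% (16 of 26) and miR-297 3.99% (2 of 3). By arm, rows named 5p held 70.4% of the reads, rows named 3p 21.8% and rows with no arm in their name 7.78%.

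At least 1 read was found for 21 to 29 rows per library in DIV1 control (mean 25), for 17 to 32 in DIV1 GDNF (mean 25), for 24 to 42 in DIV5 control (mean 34.8) and for 31 to 40 in DIV5 GDNF (mean 35.6). When every library was thinned to the lowest total of 420118 reads, the expected numbers were 18.6 ± 1.61, 18.6 ± 1.85, 21.1 ± 3.09 and 20.1 ± 1.45 in the same order (SD, n = 5). At equal depth the ranges of all 4 groups overlapped.

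The summed level of the 68 rows was higher at DIV5 than at DIV1 without GDNF, and its size depended on the scaling. In CPM of the library total it was 186, 162, 201, 182 and 182 in DIV1 control replicates 1 to 5. It was 239, 209, 286, 278 and 355 in DIV5 control. The lowest DIV5 control library lay above the highest DIV1 control library, and the ratio of the means (273 ± 55.3 to 183 ± 14.1, SD, n = 5) was 1.497. In DIV5 control the mean was 224 CPM in replicates 1 and 2 and 306 CPM in replicates 3 to 5.

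With GDNF the summed level was 180, 197, 215, 178 and 167 CPM at DIV1 and 184, 190, 220, 262 and 252 CPM at DIV5. These ranges overlapped, with means of 187 ± 18.9 and 222 ± 35.2 (SD, n = 5) and a ratio of 1.18. The DIV5 GDNF mean was 187 CPM in replicates 1 and 2, level with the DIV1 GDNF mean, and 245 CPM in replicates 3 to 5. The counting intervals were wide at this abundance: the exact 95% binomial interval was 139 to 187 CPM for DIV1 control replicate 2, the lowest library, and 337 to 374 CPM for DIV5 control replicate 5, the highest. No p-value is given for a sum over rows that were chosen with earlier results known.

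TMM scaling, which centres most miRNAs between libraries, lowered the DIV5 means and raised those at DIV1. The summed level then was 197 ± 19.5 in DIV1 control, 200 ± 23.0 in DIV1 GDNF, 246 ± 40.8 in DIV5 control and 213 ± 28.3 TMM-scaled CPM in DIV5 GDNF (SD, n = 5). The ratio of DIV5 to DIV1 fell to 1.25 without GDNF and 1.07 with it, and the ranges of DIV1 control (169 to 224) and DIV5 control (207 to 312) overlapped. In TMM-scaled CPM, replicates 1 and 2 averaged 213 in DIV5 control and 187 in DIV5 GDNF, against 269 and 230 in replicates 3 to 5. Without DIV5 control replicates 1 and 5, which were left out as an alternative, the ratio without GDNF was 1.41 in CPM of the library total.

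GDNF and control differed little in the sum at DIV1, with a ratio of 1.02 under either scaling. At DIV5 the ratio of GDNF to control was 0.811 in CPM and 0.864 in TMM-scaled CPM. In CPM, control lay above GDNF within replicates 1 and 2 (209 to 239 against 184 to 190) and within replicates 3 to 5 (278 to 355 against 220 to 262). In TMM-scaled CPM the same held for replicates 1 and 2 (207 to 219 against 176 to 198), whereas replicates 3 to 5 overlapped (244 to 312 against 217 to 252).

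**Figure D2:**
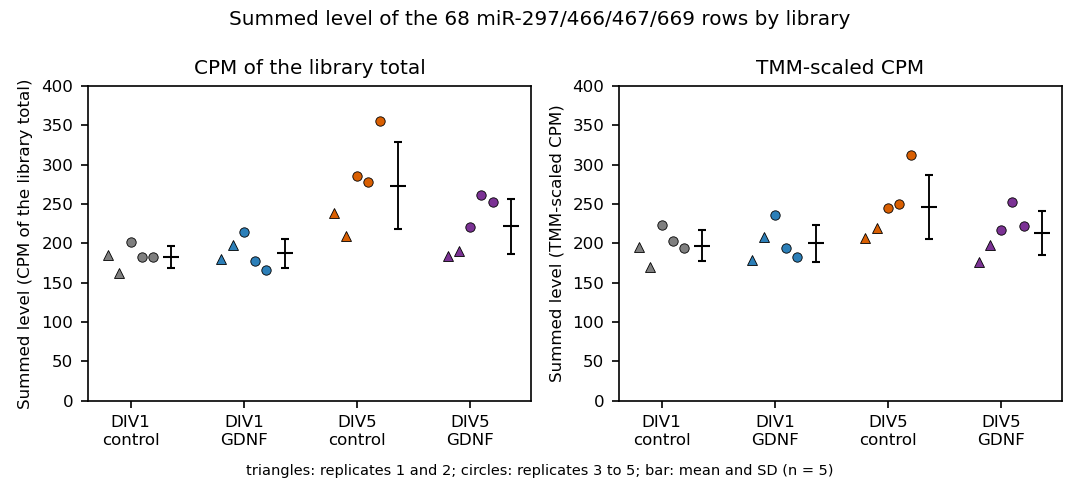
Summed level of the 68 rows in each library (y axis, CPM of the library total on the left and TMM-scaled CPM on the right) by group (x axis). Triangles are replicates 1 and 2, circles replicates 3 to 5, bars the mean and SD of 5 libraries. In CPM the DIV5 control libraries lie between 209 and 355 and the DIV1 control libraries between 162 and 201, while after TMM scaling the groups overlap.

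The 4 series did not follow the sum alike. In TMM-scaled CPM, miR-467 had means of 69.7 in DIV1 control, 67.2 in DIV1 GDNF, 92.4 in DIV5 control and 89.8 in DIV5 GDNF, and miR-669 had means of 80.1, 79.3, 114 and 88.6 in the same order. For miR-466 the means were 40.6, 44.9, 31.0 and 26.7, lower at DIV5. Most of this came from miR-466g, described below: without it the other miR-466 rows summed to 18.4 ± 3.23, 20.8 ± 6.20, 17.9 ± 5.55 and 16.0 ± 2.41 (SD, n = 5). The miR-297 series was lowest throughout, at 6.44, 8.32, 9.37 and 7.91. These series means were not tested.

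Single rows were tested with edgeR's quasi-likelihood test over all 542 miRNAs that passed its filter on low counts, with Benjamini-Hochberg adjustment and calls at an adjusted p below 0.05. Only 10 of the 68 rows passed the filter (20.8% of the 48 with reads, against 34.7% of the other miRNAs with reads). A low row can pass through the group where it is high, so counts over these 10 rows describe them alone. The values below are TMM-scaled CPM for replicates 1 to 5 in order. Levels of different rows are read counts, which also depend on adapter ligation and on the counting of copies, and are not compared as molecule numbers.

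From DIV1 to DIV5 without GDNF, 4 of the 10 rows rose (miR-669d-5p, miR-669b-5p, miR-467a-5p and the joined row miR-669a-3p/miR-669o-3p) and 1 fell (miR-466g). This was 5 of 10, beside 60.7% of all tested miRNAs called in this comparison, 31.4% higher and 29.3% lower. The share of called rows was thus no higher than among all miRNAs. The median log2 fold change of the 10 rows was 0.56, against 0.10 over all 542.

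miR-669d-5p, from 2 hairpins near the 5′ end of the cluster, had the largest increase of the 10. Its level was 3.37, 0, 1.40, 2.62 and 4.65 in DIV1 control and 12.3, 8.89, 8.51, 9.99 and 13.5 in DIV5 control. All DIV5 control libraries lay above all DIV1 control libraries, although the DIV1 control level rested on 11 reads in all. The log2 fold change was 2.17 (SE 0.511, adjusted p = 0.00107 by edgeR).

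miR-669b-5p, from the neighbouring hairpin, had 2.02, 2.75, 0, 5.23 and 3.10 in DIV1 control and 10.4, 9.87, 4.94, 5.15 and 16.4 in DIV5 control. DIV5 control replicates 3 and 4 fell within the DIV1 range, just below its highest library. It rose by 1.83 on the log2 scale (SE 0.490, adjusted p = 0.00308 by edgeR), and without DIV5 control replicates 1 and 5 it was 1.21 (adjusted p = 0.0431 by edgeR).

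miR-467a-5p, the 5p strand of the hairpin with 10 copies, had 18.2, 30.2, 32.1, 26.2 and 26.3 in DIV1 control and 30.2, 36.5, 46.5, 46.9 and 46.7 in DIV5 control. DIV5 replicates 1 and 2 were the lowest of their group, and replicate 1 lay within the DIV1 range. The row rose by 0.66 on the log2 scale (SE 0.218, adjusted p = 0.0130 by edgeR). It was 0.82 (adjusted p = 0.00301) with DIV5 replicates 3 to 5 only and 0.39 (adjusted p = 0.290) with replicates 1 and 2 only, by the same edgeR test.

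The joined row miR-669a-3p/miR-669o-3p had 21.6, 15.6, 14.0, 13.1 and 17.0 in DIV1 control and 24.0, 9.87, 30.9, 32.1 and 58.7 in DIV5 control. Replicate 5 was highest at DIV5, and replicate 2 lay below every DIV1 library. The log2 fold change was 0.95 (SE 0.372, adjusted p = 0.0320 by edgeR). The call was lost by edgeR without DIV5 control replicate 5 (0.64, adjusted p = 0.136), without DIV1 control replicate 2, 3 or 4 (adjusted p between 0.0539 and 0.0644) and with DIV5 replicates 1 and 2 only (0.19, adjusted p = 0.702).

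miR-466g, from a single hairpin near the 3′ end of the cluster, was the row that fell. It had 29.0, 18.3, 22.4, 20.9 and 20.1 in DIV1 control and 8.48, 15.8, 10.9, 14.2 and 15.9 in DIV5 control. Every DIV5 control library lay below every DIV1 control library. The log2 fold change was -0.78 (SE 0.224, adjusted p = 0.00505 by edgeR). It kept its direction in all 20 alternatives and was no longer called in 1, the test with no filter on low counts (-0.57, adjusted p = 0.166 by edgeR).

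The rows with the highest and the third highest mean CPM were not called in this comparison. miR-467d-5p, the most abundant of the 68, had 35.04, 37.6, 55.9, 36.6 and 32.5 in DIV1 control and 44.3, 58.2, 51.0, 50.6 and 34.9 in DIV5 control. The groups overlapped, and the change was 0.27 on the log2 scale (adjusted p = 0.206 by edgeR). Without DIV1 control replicate 3, its high library, the change was 0.44 and called (adjusted p = 0.0460 by edgeR), and it was also called with library totals in place of TMM (0.52, adjusted p = 0.0155) and without DIV5 control replicates 1 and 5 (0.45, adjusted p = 0.0411).

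The joined row miR-669p-5p/miR-669a-5p had 30.3, 22.9, 28.0, 40.6 and 29.4 in DIV1 control and 27.8, 34.6, 25.5, 24.8 and 32.1 in DIV5 control. The groups overlapped throughout, with a log2 fold change of -0.07 (adjusted p = 0.784 by edgeR) that changed sign in 4 of 20 alternatives.

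**Figure D3:**
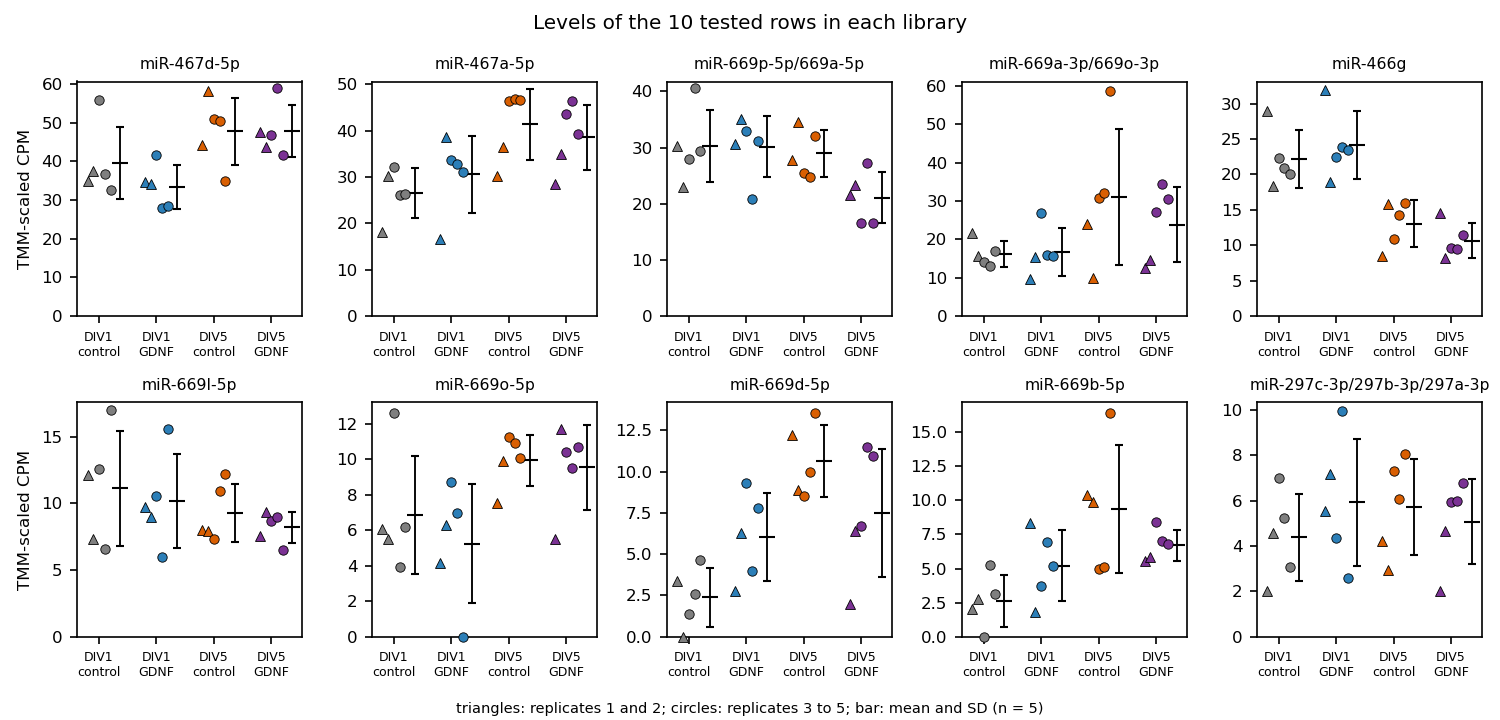
TMM-scaled CPM (y axis, linear from 0) of the 10 tested rows in each library by group (x axis). Triangles are replicates 1 and 2, circles replicates 3 to 5, bars the mean and SD of 5 libraries. miR-466g lies between 18.3 and 31.9 at DIV1 and between 8.18 and 15.9 at DIV5, whereas miR-669p-5p/miR-669a-5p overlaps between the control groups of both days.

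With GDNF in both groups, 1 of the 10 rows rose from DIV1 to DIV5 (miR-467d-5p) and 2 fell (miR-466g and miR-669p-5p/miR-669a-5p), beside 52.4% of all tested miRNAs, 25.1% higher and 27.3% lower. The median log2 fold change of the 10 rows was 0.33 and that of all miRNAs 0.00. With DIV5 replicates 3 to 5 only, the median of the 10 was 0.54, and with replicates 1 and 2 only, where 8 rows were tested, it was -0.077. This comparison uses other libraries than the one without GDNF.

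miR-466g was again lower at DIV5. It had 31.9, 18.9, 22.4, 23.9 and 23.4 in DIV1 GDNF and 14.5, 8.18, 9.67, 9.48 and 11.4 in DIV5 GDNF. The groups did not overlap, and the log2 fold change was -1.16 (SE 0.226, adjusted p = 0.000238 by edgeR). It was called in all 20 alternatives. miR-466g was thus the single row of the 10 called in both comparisons of the days.

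miR-467d-5p had 34.7, 34.1, 41.7, 27.9 and 28.6 in DIV1 GDNF and 47.6, 43.8, 46.8, 59.1 and 41.6 in DIV5 GDNF. The ranges touched, the lowest DIV5 library lying just under the highest DIV1 library. It rose by 0.50 on the log2 scale (SE 0.183, adjusted p = 0.0270 by edgeR). The call was lost by edgeR without DIV5 GDNF replicate 4 (adjusted p = 0.0628) and with DIV5 replicates 1 and 2 only (0.43, adjusted p = 0.143).

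miR-669p-5p/miR-669a-5p had 30.6, 35.04, 33.0, 20.9 and 31.2 in DIV1 GDNF and 21.6, 23.4, 16.6, 27.2 and 16.6 in DIV5 GDNF. DIV1 GDNF replicate 4 lay within the DIV5 range, and the other 4 DIV1 libraries lay above it. The log2 fold change was -0.52 (SE 0.202, adjusted p = 0.0360 by edgeR). The call held in 7 of 20 alternatives and the direction in all 20. It was lost, among others, when DIV1 GDNF replicate 1, 2, 3 or 5 or DIV5 GDNF replicate 1, 3 or 5 was left out (adjusted p up to 0.128 by edgeR), and with the replicate number as a block (-0.53, adjusted p = 0.0559 by edgeR).

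The 4 rows that rose without GDNF did not pass the test with it. miR-467a-5p had a mean of 30.6 ± 8.27 in DIV1 GDNF and 38.6 ± 7.07 in DIV5 GDNF (SD, n = 5), with a log2 fold change of 0.33 (adjusted p = 0.208 by edgeR). With the replicate number as a block within each day, it was called (0.36, adjusted p = 0.0464 by edgeR). No block spans both days, so this comparison lacks the spread between replicate numbers and its adjusted p may be too small. The block raised the calls over all miRNAs as well, from 52.4% to 59.2%. miR-669a-3p/miR-669o-3p changed by 0.49 (adjusted p = 0.275), miR-669b-5p by 0.47 (adjusted p = 0.381) and miR-669d-5p by 0.33 (adjusted p = 0.528), all on the log2 scale by edgeR.

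The replicate sets of DIV5 differed for miR-467a-5p and miR-669a-3p/miR-669o-3p with GDNF. With DIV5 replicates 3 to 5 the log2 fold change of miR-467a-5p was 0.51 (adjusted p = 0.0496 by edgeR). With replicates 1 and 2 it was 0.038 (adjusted p = 0.931 by edgeR). For miR-669a-3p/miR-669o-3p it was 0.87 with replicates 3 to 5 (adjusted p = 0.0107 by edgeR) and -0.35 with replicates 1 and 2 (adjusted p = 0.4997 by edgeR). The DIV5 GDNF levels of miR-669a-3p/miR-669o-3p were 12.5 and 14.6 in replicates 1 and 2 and 27.3, 34.4 and 30.4 in replicates 3 to 5.

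**Figure D4:**
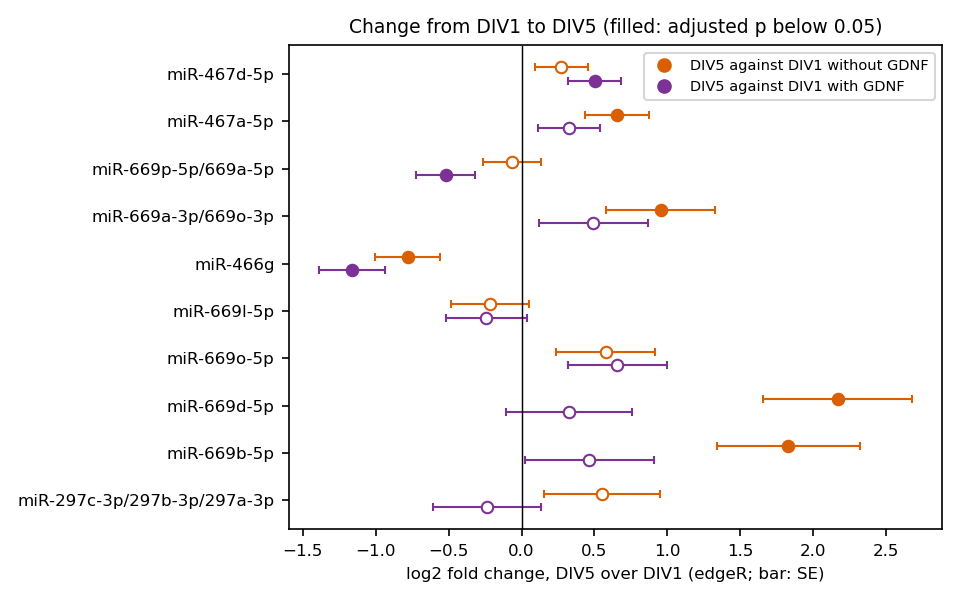
log2 fold change from DIV1 to DIV5 (x axis) of the 10 tested rows (y axis), without GDNF in orange and with GDNF in purple. Bars are the SE from edgeR and filled circles are adjusted p below 0.05. miR-466g lies left of 0 in both comparisons, at -0.78 and -1.16, while miR-669d-5p and miR-669b-5p are filled only without GDNF.

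Scaling by library totals in place of TMM moved the median log2 fold change of all miRNAs by 0.25 without GDNF and by 0.15 with it, and it moved these 10 rows by nearly the same amount (0.26 and 0.16). Over all miRNAs, the split of calls went from 170 higher and 159 lower to 228 higher and 111 lower without GDNF, and from 136 and 148 to 166 and 117 with it. Under library totals 6 of the 10 rows were called higher and 1 lower without GDNF, and 2 higher and 1 lower with GDNF, in place of 1 and 2. miR-466g was lower under either scaling in both comparisons.

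GDNF against control at DIV1 gave no call among the 10 rows (background 0%, edgeR). At an unadjusted p below 0.05 there was 1 of the 10 and 7 of all 542, and DESeq2 also called 0 of the 10. Their log2 fold changes lay between -0.22 and 1.38, with 7 positive and 3 negative and a median of 0.08, against 0.03 over all miRNAs.

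The row with the smallest p at DIV1 was miR-669d-5p, with 2.78, 6.29, 9.34, 3.98 and 7.80 in DIV1 GDNF against the 0 to 4.65 of DIV1 control given above. The groups overlapped, and the log2 fold change of 1.38 (SE 0.589, unadjusted p = 0.0287, adjusted p = 1.00 by edgeR) did not pass the adjustment. miR-669b-5p, at 8.33, 1.797, 3.74, 6.97 and 5.20 in DIV1 GDNF, differed by 0.92 (SE 0.585) and the joined row miR-297c-3p/miR-297b-3p/miR-297a-3p by 0.57 (SE 0.446), with adjusted p = 1.00 by edgeR for each. All 3 are rows of few reads. The DIV1 control libraries enter both this comparison and the change between days without GDNF, so the low miR-669d-5p values there bear on both.

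At DIV5, GDNF against control also gave no call among the 10 rows, beside 0.185% of all miRNAs called by edgeR. DESeq2 called 4.8% of all miRNAs and 0 of the 10, and 1 of the 10 had an unadjusted p below 0.05 in edgeR. Of the 10 rows, 9 had a negative log2 fold change, with a median of -0.25, while over all miRNAs the median was -0.00063 and 49.8% were positive. The range of the 10 was -0.46 to 0.01. Without DIV5 control replicate 5 the median of the 10 was -0.083.

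miR-669p-5p/miR-669a-5p had the smallest p, with the DIV5 control and DIV5 GDNF levels given above (means 29.0 ± 4.23 and 21.1 ± 4.54, SD, n = 5). The groups overlapped, since GDNF replicate 4 at 27.2 lay above 2 control libraries, and the log2 fold change was -0.45 (SE 0.192, adjusted p = 0.239 by edgeR). miR-669d-5p had 2.01, 6.42, 6.69, 11.5 and 10.9 in DIV5 GDNF and differed by -0.46 (SE 0.356, adjusted p = 0.613 by edgeR). miR-466g, with means of 13.1 ± 3.27 and 10.7 ± 2.46 (SD, n = 5), differed by -0.29 (SE 0.217, adjusted p = 0.613 by edgeR). With DIV5 replicates 1 and 2 only, miR-466g differed by -0.097 and miR-669p-5p/miR-669a-5p by -0.54, and miR-669d-5p was not tested. With DIV5 replicates 3 to 5 only, miR-466g differed by -0.40, miR-669p-5p/miR-669a-5p by -0.44 and miR-669d-5p by -0.12. None of these was called.

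The difference between the GDNF effects at DIV5 and DIV1, which is also the difference between the changes of the days with and without GDNF, was called for 0 of the 10 rows and 0% of all miRNAs by edgeR. At an unadjusted p below 0.05 there was 1 of the 10 and 50 of all 542, and DESeq2 called 0 of the 10. The smallest p of the 10 was that of miR-669d-5p, at -1.84 on the log2 scale (SE 0.689, unadjusted p = 0.0142, adjusted p = 0.456 by edgeR). Next by p were miR-669b-5p at -1.36 (SE 0.682, adjusted p = 0.567 by edgeR) and miR-669p-5p/miR-669a-5p at -0.45 (SE 0.284, adjusted p = 0.725 by edgeR). The joined miR-297 row (-0.79) and miR-669a-3p/miR-669o-3p (-0.46) were larger in size than the last of these, with larger p. Thus the rise of miR-669d-5p and miR-669b-5p without GDNF was not shown to differ from their change with GDNF.

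The 2 joined rows of the miR-669a hairpins differed in their balance. The 3p row made up 41.6, 40.5, 33.3, 24.4 and 36.7% of the reads of both rows in DIV1 control and 24.1, 30.4, 44.8, 43.2 and 33.3% in DIV1 GDNF. It made up 46.4, 22.2, 54.7, 56.4 and 64.7% in DIV5 control and 36.8, 38.5, 62.1, 55.9 and 64.6% in DIV5 GDNF. In both DIV5 groups replicates 3 to 5 lay above every DIV1 library, at 54.7 to 64.7%, and replicates 1 and 2 did not, except that DIV5 control replicate 1 lay slightly above the highest DIV1 value. The joined names also take in reads of miR-669o and miR-669p hairpins, so this is not a ratio within 1 precursor.

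The remaining 3 tested rows were not called in any comparison with TMM scaling and all libraries. miR-669l-5p had means of 11.1, 10.2, 9.27 and 8.21 in DIV1 control, DIV1 GDNF, DIV5 control and DIV5 GDNF, and miR-669o-5p had means of 6.85, 5.23, 9.93 and 9.55. From DIV1 to DIV5, miR-669o-5p was called higher by edgeR with library totals (0.83 without GDNF, adjusted p = 0.0364, and 0.81 with GDNF, adjusted p = 0.0496), and without DIV1 control replicate 3 (0.88 without GDNF, adjusted p = 0.0415). The joined miR-297 row had means of 4.38, 5.93, 5.73 and 5.08, and its groups overlapped in every comparison. The 38 rows with reads that did not pass the filter summed to 32.1, 30.2, 43.9 and 35.4 CPM of the library total in the same order, which was 16.0 to 17.6% of the mean sum of a group. Of these, miR-466i-5p (136 reads in 19 libraries), miR-669f-5p (144 reads in 16) and miR-297b-5p (138 reads in 17) had the most reads, and were named after their values were seen.

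Markers of other cells moved between the days as well. Summed markers of mesenchyme, of which miR-143-3p had most reads, were 2470 to 3838 CPM in DIV1 control, 2484 to 3389 in DIV1 GDNF, 508 to 1546 in DIV5 control and 226 to 2070 in DIV5 GDNF, with 4 of 4 detected. The other rows did not all follow. With GDNF, miR-199a-5p was 11.4 to 181 CPM at DIV1 and 14.5 to 190 at DIV5, and miR-214-3p was 0.912 to 75.2 and 1.12 to 40.4. miR-145a-5p was lower at DIV5 with GDNF (13.6 to 21.4 and 1.26 to 4.49). Markers of microglia and leukocytes (4 of 4 detected) were 57.1 to 104 CPM over both DIV1 groups and 7.71 to 41.4 over both DIV5 groups. Oligodendrocyte markers (1 of 3 detected at DIV1, 2 of 3 at DIV5) were 402 to 603 CPM at DIV1 and 170 to 468 at DIV5. Nearly all came from miR-219a-2-3p, with miR-219a-5p at 0 throughout. miR-338-3p had 0 reads at DIV1, 8 in DIV5 control and 6 in DIV5 GDNF.

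Endothelial markers (1 of 2 detected, miR-126a-5p at 0) were 38.6 to 141 CPM at DIV1 and 17.8 to 73.4 at DIV5. Erythroid markers (4 of 4 detected) summed to 2096 to 3216 CPM at DIV1 and 3801 to 7257 at DIV5, nearly all from the joined miR-486 row. The other 3 had lower ranges at DIV5: without GDNF, miR-451a was 14.6 to 46.9 CPM at DIV1 and 4.72 to 17.0 at DIV5, and miR-144-3p was 2.91 to 10.9 and 0.497 to 2.18. Markers of pluripotent cells were 23.8 to 71.0 CPM at DIV1 and 8.48 to 44.2 at DIV5. Of the 9, 8 had reads in DIV1 control, 5 in DIV1 GDNF, 7 in DIV5 control and 8 in DIV5 GDNF. Most reads came from miR-302a-3p, miR-302b-3p and miR-302d-3p. miR-290a-3p was at 0 throughout, miR-291a-3p, miR-292a-3p, miR-293-3p and miR-294-3p had 0 to 4 reads per group, and miR-295-3p had 8 to 21. Neuronal markers (4 of 5 detected, miR-138-5p at 0) summed to between 52686 and 103650 CPM, mostly from miR-9-5p, which neural progenitors also express. Of the neuronal miRNAs, miR-124-3p was 1878 to 2497 CPM at DIV1 and 5295 to 8421 at DIV5, and miR-128-3p was 1742 to 4228 and 6582 to 12962, with no overlap between the days for either. The part of these shifts in the changes of the 10 rows was not tested.

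As a comparison, the imprinted Dlk1-Dio3 miRNAs from miR-379 to miR-410, another large clustered family, were far more abundant (5.87% of all counts, 70 of 76 rows with reads). Of 59 tested, 36 rose and 4 fell from DIV1 to DIV5 without GDNF (median log2 fold change 0.81). Over all tested miRNAs 60.7% were called in this comparison, 31.4% higher and 29.3% lower (median 0.10). With GDNF 27 of the 59 rose and 3 fell (0.56), beside 52.4% of all tested miRNAs, 25.1% higher and 27.3% lower (median 0.00). The medians of the 10 Sfmbt2 rows in these comparisons of the days were 0.56 and 0.33. GDNF against control gave Dlk1-Dio3 medians of 0.04 at DIV1 and -0.14 at DIV5 on the log2 scale, beside 0.08 and -0.25 for the 10 Sfmbt2 rows. The difference between the families was not tested.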

How the data were processed

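Small RNA was sequenced from 20 libraries, 4 groups of 5. Per the submitters' processing notes, reads were trimmed with cutadapt 1.8.1, aligned with STAR 2.4.1d to mm10 and counted with HTSeq. The authors deposited whole-number read counts for each mature miRNA, not normalized. The miRNA annotation and the treatment of reads that map to several copies are not given in the sources used here. Besides 1886 miRNA rows, each file has 5 tallies, of which only the reads outside any feature exceeded 0 (9.51 to 22.6% of reads). They were left out of library sizes.

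The analysis used edgeR 4.0.16 (R 4.3.3): filterByExpr, TMM factors, and a robust quasi-likelihood fit over all 20 libraries with a coefficient for each group. The 5 contrasts were adjusted by Benjamini-Hochberg over 542 miRNAs, two-sided. The SE is the size of the log2 fold change divided by the square root of F. The script was tested on simulated data. Alternatives were RLE factors, DESeq2 1.42.0, no filter, a mean of 10 CPM, the compared groups only, a replicate block, the DIV5 replicate sets, leaving out libraries and, added after seeing the data, library totals without a scaling factor.

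Libraries of the same number deviated together at DIV5 (correlations of deviations from the group means 0.208 to 0.514 over 5 pairs). For replicates 1, 3 and 5, however, a library of another number correlated more (0.331, 0.262 and 0.280). At DIV1 the correlations between libraries of the same number ranged from 0.00624 to 0.474. The main fit did not treat these libraries as pairs, and the replicate block was run as an alternative only. Between libraries of a group, chi-square per degree of freedom was at least 10.3, so none were duplicates.

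Rows named in the text were those called in any comparison, the 10 most abundant, the most abundant of each series and the 3 with the smallest p in each comparison. The rows and lists were chosen with earlier results of these data known.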

Additional observations from a re-analysis of the deposited data

Results flagged for a closer look

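In 44 sets of 5 library values, each a tested row or the summed level in a group, 2 held a library far from the other 4 by Dixon's test, and chance alone flags about 1 in 20. miR-467d-5p was at 55.9 TMM-scaled CPM in DIV1 control replicate 3, while the other 4 libraries lay between 32.5 and 37.6. miR-669o-5p was at 12.6 TMM-scaled CPM in the same library, while the others lay between 3.93 and 6.20. Leaving this library out brought both rows past the threshold between the days without GDNF, as given above.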

How the results depend on the processing

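Of 630 values recomputed under the alternatives, 589 were classed as unchanged. For a single row this meant the same direction and the same side of the threshold. For numbers of calls, summed levels and detection it meant staying within a set margin of the main value. The number of rows called from DIV1 to DIV5 without GDNF went from 5 to 3 with a filter at a mean of 10 CPM, where 5 rows were tested (63.7% of all miRNAs called), and to 2 with DIV5 replicates 1 and 2 only, where 8 were tested (47.9% of all). With no filter it was 7 of 48 rows (21.4% of all), 7 higher and 0 lower, of which 4 were shared. With GDNF it went from 3 to 1 with DIV5 replicates 1 and 2 only (37.2% of all). Leaving out 1 library at a time gave 4 to 6 calls without GDNF (54.7 to 60.8% of all miRNAs) and 2 to 3 with it (46.8 to 53.0% of all). It gave 0 among the 10 rows in each GDNF comparison, beside 0 to 7.60% of all miRNAs for GDNF at DIV5. Detection counted from 3 reads gave means of 13.6, 13, 23.8 and 23.6 rows in DIV1 control, DIV1 GDNF, DIV5 control and DIV5 GDNF. miR-669p-5p/miR-669a-5p without GDNF changed sign with library totals (0.18), with no filter (0.15), with DIV5 replicates 1 and 2 only (0.10) and without DIV1 control replicate 4 (0.079), over a range of -0.12 to 0.079 when single libraries were left out. miR-669a-3p/miR-669o-3p with GDNF changed sign with DIV5 replicates 1 and 2 only (-0.35). The cause of these changes was not tested. The replicate block gave 0 calls among the 10 rows for GDNF at either day and for the difference (0 to 0.554% of all miRNAs). Between the days it gave the same 5 without GDNF (63.5% of all), and 3 with GDNF (59.2% of all), of which 2 were shared. The blocks lie within each day, so these comparisons of the days lack the spread between replicate numbers. For 17 detected rows, 1 to 19 reads in all limit any statement on change.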
